A study of Homo sapiens with 6 samples.

Results

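Alpha-ketoglutarate-dependent dioxygenases were examined in MiaPaCa-2, an established human pancreatic ductal adenocarcinoma (PDAC) cell line, cultured with little glucose. The set was fixed by name and holds 45 genes out of 60668 in the deposited table: 17 histone lysine demethylases, 4 oxygenases that act on ribosomal, splicing or chromatin proteins, 3 TET enzymes, 9 members of the ALKBH and FTO family, 2 hydroxylases of the hypoxia-inducible factors (HIF), 6 collagen hydroxylases and 4 others. All 45 were found in the table through the Gencode symbols of its identifiers, and 43 had reads. Cells were kept for 48 h in 2.5 mM glucose (low glucose, 3 libraries) or under control conditions (25 mM glucose, 3 libraries), as independent biological replicates of a single cell line without any genetic change. The treatment protocol in the labels names 2.5 mM glucose for every sample, so the control group rests on the sample titles, the treatment entry "none" and the series design.

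These enzymes use alpha-ketoglutarate, oxygen and ferrous iron to hydroxylate their substrates, and release succinate and carbon dioxide. Hydroxylation of a methyl group removes it, which is how histone demethylases, FTO and ALKBH5 erase methyl marks, whereas TET enzymes oxidize 5-methylcytosine in DNA. Other members hydroxylate proline, lysine or asparagine in proteins such as collagen and HIF. Isocitrate dehydrogenases, among them IDH1, the enzyme at the centre of the study, make their co-substrate. The comparison asked whether the mRNAs of these enzymes changed when glucose was withdrawn.

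Whole-culture RNA was sequenced, so fewer cells with a transcript and less transcript per cell cannot be told apart. The control libraries held 9741183 to 10190154 reads on genes and the low-glucose libraries 10595408 to 13733477. Only the columns of low glucose replicates 1 (10841656 reads) and 2 (10595408 reads) are named in the labels, and the groups of the other 4 were taken from the numbering of the column names, which the labels do not spell out, so that every comparison rests on that reading. Values are listed below in order of library depth within each group. The epithelial keratins KRT8, KRT18 and KRT19 and the mesenchymal VIM each had at least 2001 reads in every library, while EPCAM had at most 1 read and CDH1 at most 3, and KRT7 had 2 to 12. The epithelial markers EPCAM and CDH1 were thus near 0 in this line. KRT8 (log2 fold change -1.01), KRT18 (-0.74) and KRT19 (-0.83) were lower and VIM (0.42) higher in low glucose, each with a limma adjusted p under 0.05, and the summed level of all 8 markers was 7546 to 8898 TPM in control and 6828 to 7014 TPM in low glucose. The call of VIM was lost after quantile normalization (0.206) or on omission of the library with 9741183 (0.0636), 10841656 (0.0543) or 10595408 (0.0764) reads, and its adjusted p (limma, edgeR and DESeq2) was 3.92e-08 to 0.206 over all alternatives. Of 8 markers of other cells, PTPRC, DCN, PRSS1 and INS had 0 reads, PECAM1 and ALB had at most 3 and COL1A1 at most 14. COL1A2, a collagen chain that fibroblasts share with some carcinoma lines, had 1940 to 2577 reads. Its mean normalized count was 2755 in control and 1924 in low glucose. Without COL1A2 these markers summed to 0.148 to 0.498 TPM in control and 0.0938 to 0.515 TPM in low glucose. The markers did not all move in 1 direction between epithelial and mesenchymal. The mesenchymal COL1A2 was lower, and the epithelial KRT7 leaned higher without passing (log2 fold change 0.85, limma adjusted p = 0.211). The part of these marker changes in the results below was not tested.

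Of the 43 dioxygenase genes with reads, 8 were higher and 15 were lower in low glucose with a limma adjusted p under 0.05, and 20 did not pass. All 43 passed the filter on low values (a mean normalized count of at least 1), and KDM6A and BBOX1, with 0 reads, were not tested. Over all 21101 genes tested, 30.9% passed (14.7% higher and 16.2% lower). Because genes with more reads passed more often, the share was also taken over 11831 genes whose mean normalized count reached 50, where 45.5% passed (18.4% higher, 27.0% lower). Of the 39 members at or above that mean, 22 (56.4%) passed. The low-glucose and control libraries did not overlap for 29 of the 43 members (10 above, 19 below), against 43.9% of all tested genes. That share includes many genes with few reads and was not taken over genes reaching a mean of 50. The median log2 fold change of the members was -0.15, whereas the median over all tested genes was 0.05 and over those reaching a mean of 50 it was -0.05. Of the 43 members, 12 both passed and changed by 0.5 or more on the log2 scale, as did 3883 of the 21101 tested genes (18.4%). Taken over those that passed, these were 12 of 23 members and 3883 of 6528 genes. Leaving out 1 low-glucose library, that of 10841656 or that of 10595408 reads, reduced the 23 calls to 15 each, and leaving the variance trend out of limma's model reduced them to 10. All calls made in those 3 fits were among the 23.

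**Figure D1:**
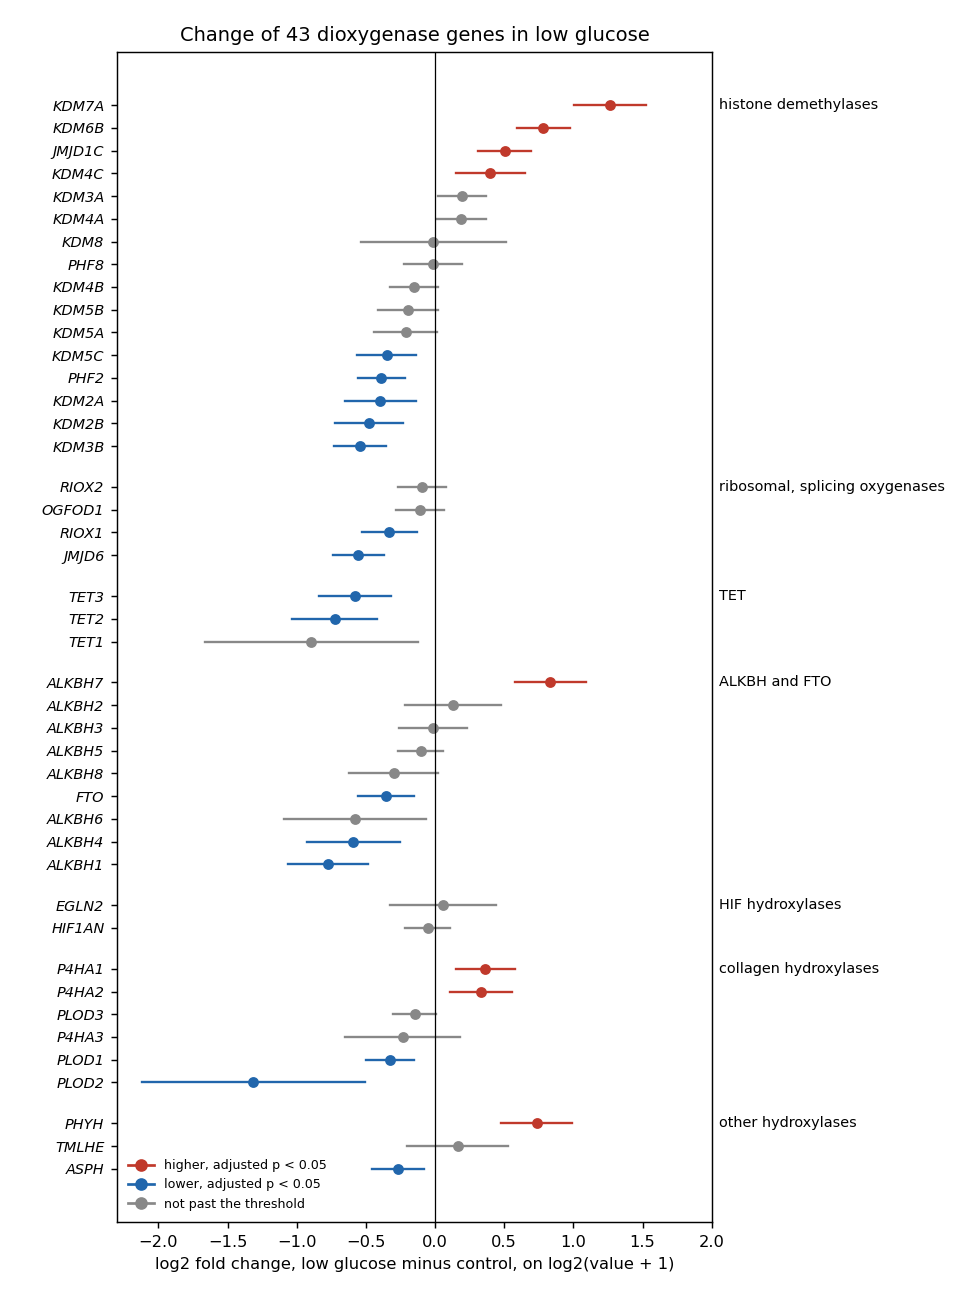
Log2 fold change (low glucose minus control, x axis) of the 43 dioxygenase genes with reads, with 95% confidence intervals from limma, sorted within each family (named at the right). Red points (8) were higher and blue points (15) lower at an adjusted p under 0.05, and grey points (20) did not pass. KDM7A lies furthest to the right (1.27) and PLOD2 furthest to the left (-1.31), and all 3 TET genes lie left of 0.

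Among the 17 histone demethylases, 4 rose, 5 fell and 7 did not pass, and KDM6A had no read. The share of those tested that passed was 56.25%, against 45.5% of all genes reaching a mean of 50. KDM7A, which removes methyl groups from histone H3 lysine 9 and lysine 27, showed the largest rise of all members. Its normalized count was 104, 116 and 96.3 in the control libraries and 240.0, 259.7 and 264 in the low-glucose libraries. The lowest low-glucose library lay far above the highest control library, although the gene had only 90 to 348 reads per library. The mean rose 2.41-fold (log2 fold change 1.27, standard error 0.123, limma adjusted p = 3.74e-06). KDM7A lies at chr7:140084746-140176983 of hg38 on the minus strand. KDM6B, an inducible demethylase of histone H3 lysine 27, had 284, 293 and 272 in control and 501, 475 and 486 in low glucose. The spread within each group was small against the gap between them, and the mean rose 1.72-fold (log2 fold change 0.78, standard error 0.0899, limma adjusted p = 1.65e-05; chr17:7834217-7854796). JMJD1C, a relative of the lysine 9 demethylase KDM3A, had 606, 691 and 563 in control and 843, 916 and 869.8 in low glucose (log2 fold change 0.50, standard error 0.0905, limma adjusted p = 7.21e-04; chr10:63167221-63521850). Its groups did not overlap, although the control libraries were more spread than those of low glucose. KDM4C, a demethylase of lysines 9 and 36, rose by less, from 166 ± 7.79 (SD, n = 3) to 219 ± 19.3 (SD, n = 3) (log2 fold change 0.40, standard error 0.116, limma adjusted p = 0.0172). A noncoding gene on the same strand shares 135 bp of exon with KDM4C. The call of KDM4C was lost without the variance trend (0.0524) or on omission of the library with 10841656 (0.0971) or 13733477 (0.0699) reads, and its adjusted p (limma, edgeR and DESeq2) was 0.00624 to 0.0971 over all alternatives.

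The 5 histone demethylases that fell do not share a single target lysine. KDM3B, the closest relative of KDM3A, had 1766, 1773 and 1481 in control and 1073, 1169.7 and 1196 in low glucose. All low-glucose libraries lay below the lowest control library, and the control mean was 1.46-fold higher (log2 fold change -0.54, standard error 0.0875, limma adjusted p = 2.97e-04; chr5:138352685-138437028). PHF2, a demethylase of the plant homeodomain finger family, fell from 684 ± 19.6 to 522 ± 4.32 (SD, n = 3 each; log2 fold change -0.39, standard error 0.0798, limma adjusted p = 0.00193), without overlap between the groups. KDM2A and KDM2B, which act on H3 lysine 36 and bind unmethylated CpG islands, had log2 fold changes of -0.40 (standard error 0.119, limma adjusted p = 0.0201) and -0.48 (standard error 0.115, limma adjusted p = 0.00540). KDM5C, an X-linked demethylase of H3 lysine 4, fell as well (log2 fold change -0.35, standard error 0.1, limma adjusted p = 0.0153). The call of KDM2A was lost after quantile normalization (0.136), without the variance trend (0.162) or on omission of the library with 9741183 (0.0830), 10841656 (0.0758), 10595408 (0.0904) or 13733477 (0.0731) reads, and its adjusted p (limma, edgeR and DESeq2) was 7.27e-05 to 0.162 over all alternatives. The call of KDM2B was lost without the variance trend (0.0661), and its adjusted p (limma, edgeR and DESeq2) was 0.00222 to 0.0661 over all alternatives. The call of KDM5C was lost after quantile normalization (0.133), without the variance trend (0.128) or on omission of the library with 10841656 (0.107) or 10595408 (0.0659) reads, and its adjusted p (limma, edgeR and DESeq2) was 0.00445 to 0.133 over all alternatives. The strand setting of the counting is not given, so that reads of genes sharing exon sequence may not have been told apart. A long noncoding RNA on the other strand of KDM2A, ENSG00000287934, shares 679 bp of exon with it and had 101 to 168 reads, and RNF34 shares 439 bp with KDM2B.

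KDM3A and KDM4A had all 3 low-glucose libraries above control, with log2 fold changes of 0.20 and 0.19 that did not pass (limma adjusted p = 0.0833 and 0.0991). KDM4A-AS1, which overlaps KDM4A by 473 bp on the other strand, had at most 344 reads in a control library and at least 410 in a low-glucose library. These reads are not scaled to depth, and the low-glucose libraries were deeper. For the control library with 344 reads, 1 read equals a normalized count of 1.11. For the low-glucose library with 488 reads it equals 0.758. The reads alone therefore do not show that the groups of KDM4A-AS1 were apart. KDM4B, KDM5A and KDM5B had values from -0.21 to -0.15 and also did not pass. PHF8 and KDM8 were nearest to no change, with log2 fold changes of -0.01 (95% confidence interval -0.22 to 0.20) and -0.01 (-0.54 to 0.51). KDM8 had only 30 to 71 reads per library, and its interval was more than 2 times as wide as that of PHF8.

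**Figure D2:**
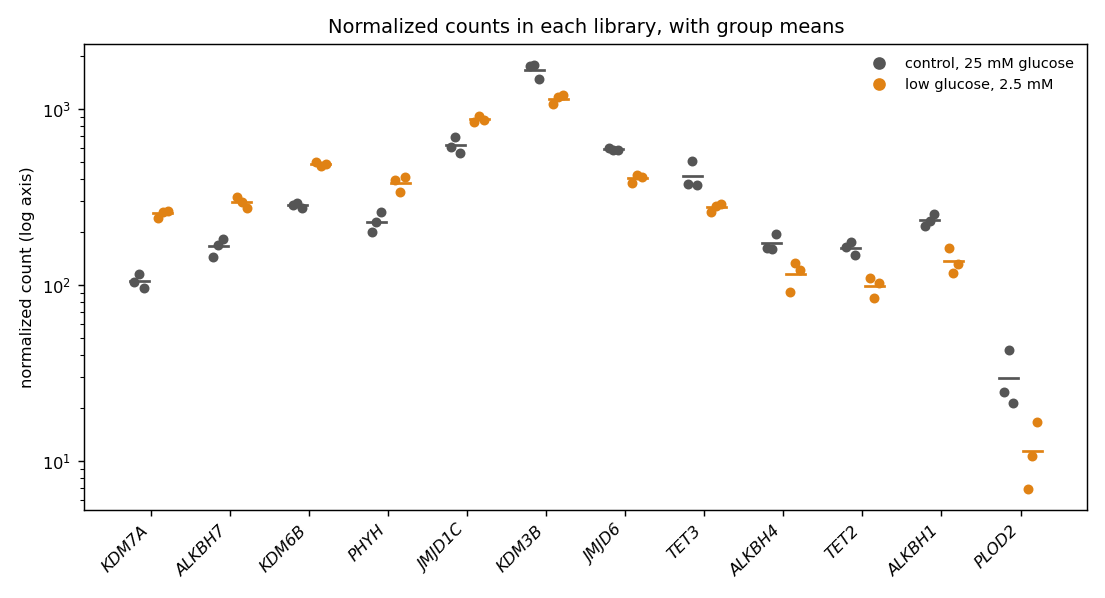
Normalized counts (y axis, log scale) of the 12 members with a limma adjusted p under 0.05 and a change of 0.5 or more on the log2 scale, in each of 3 control (grey) and 3 low-glucose (orange) libraries, with group means as bars. Members are ordered from the largest rise (KDM7A, mean 105 to 254) to the largest fall (PLOD2, mean 29.5 to 11.4), and the 2 groups of points do not overlap for any of them.

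KDM6A, the X-linked demethylase of H3 lysine 27 and paralog of KDM6B, had 0 reads in all 6 libraries. A count of 0 allows up to 3 reads, which is 0.308 CPM (reads scaled to a common library total) in the shallowest library and 0.218 CPM in the deepest (counting error only). The same held for its neighbours. KDM6A lies at chrX:44873188-45112779, and 7 consecutive protein-coding genes around it (MAOB, NDP, EFHC2, FUNDC1, DUSP21, KDM6A and DIPK2B) had 0 reads in every library. Together they span chrX:43766610-45200901, in which 2 of 18 annotated genes had any read, 5 reads in all. FUNDC1, a mitophagy receptor of the outer mitochondrial membrane, is among the 7. The coding genes on either side, MAOA (69 to 86 reads per library) and KRBOX4 (192 to 391), were both detected. These neighbours were looked up after the value of KDM6A was seen. BBOX1, the last enzyme of carnitine synthesis, also had 0 reads, with the same limits.

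**Figure D3:**
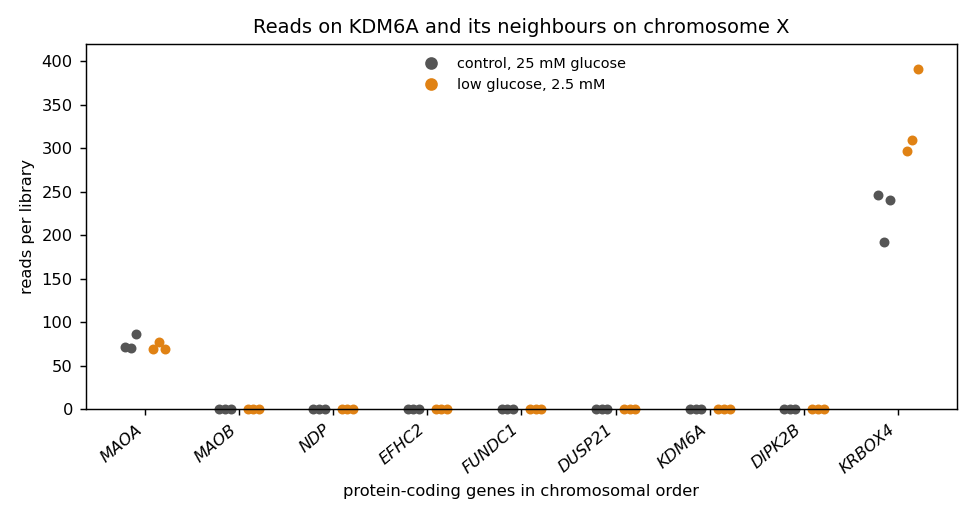
Reads per library (y axis) on KDM6A and the protein-coding genes next to it on chromosome X, in chromosomal order (x axis), for 3 control (grey) and 3 low-glucose (orange) libraries. The 7 genes from MAOB to DIPK2B sit at 0 in all libraries, between MAOA with 69 to 86 reads and KRBOX4 with 192 to 391.

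All 3 TET genes were lower in low glucose, and 2 of them passed. Among all genes reaching a mean of 50, 27.0% passed as lower, and 3 genes are too few to set against that share. TET2 had 165, 175 and 149 in control and 109, 83.7 and 103 in low glucose, so that the control mean was 1.65-fold higher (log2 fold change -0.73, standard error 0.144, limma adjusted p = 0.00151; chr4:105145875-105279816). TET3, the most abundant of the 3 per transcript length, had 376, 506 and 371 in control and 261, 282 and 287 in low glucose (log2 fold change -0.58, standard error 0.12, limma adjusted p = 0.00209; chr2:73984910-74108176). Neither gene had overlapping groups, but 1 control library of TET3 (10126218 reads) stood well above the other 2. Among members that fell, the same library was also the highest control for KDM2A, KDM2B, KDM3B, KDM5C, PHF2, TET2, FTO, PLOD1 and PLOD2. It was not the highest for ALKBH1, ALKBH4, JMJD6, RIOX1 or ASPH. TET1 had only 13 to 32 reads per library. Its values were 35.9, 31.2 and 16.0 in control and 17.8, 14.4 and 9.85 in low glucose, and they overlapped. Its log2 fold change of -0.90 (95% confidence interval -1.66 to -0.13) did not pass (limma adjusted p = 0.0730). The call of TET3 was lost without the variance trend (0.0520), and its adjusted p (limma, edgeR and DESeq2) was 3.74e-04 to 0.0520 over all alternatives. A noncoding gene within TET3 on the same strand, ENSG00000235499, shares 390 bp of exon with it.

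In the ALKBH and FTO family 1 of 9 genes rose, 3 fell and 5 did not pass. Thus 44.4% passed, near the 45.5% of all genes reaching a mean of 50. ALKBH7, a mitochondrial member linked to programmed necrosis, had 145, 169 and 182 in control and 314, 297 and 272 in low glucose. It rose 1.78-fold (log2 fold change 0.83, standard error 0.119, limma adjusted p = 1.09e-04; chr19:6372794-6375250), in all 3 low-glucose libraries. PSPN, on the other strand, shares 103 bp of exon with ALKBH7 and had 35 to 67 reads. ALKBH1, which demethylates transfer RNA, went the other way, with 216, 232 and 252 in control and 162, 117 and 132 in low glucose (log2 fold change -0.77, standard error 0.136, limma adjusted p = 5.75e-04; chr14:77672404-77708023). ALKBH4, reported to act on actin, had 163, 159 and 195 in control and 90.9, 133 and 121 in low glucose (log2 fold change -0.59, standard error 0.156, limma adjusted p = 0.01; chr7:102456238-102464863). The groups of both genes did not overlap. ORAI2, which shares 588 bp of exon with ALKBH4 on the other strand, had at most 342 reads in a control library and at least 444 in a low-glucose library. These reads of ORAI2 are not scaled to depth either. The call of ALKBH4 was lost without the variance trend (0.0731) or on omission of the library with 10595408 (0.0668) reads, and its adjusted p (limma, edgeR and DESeq2) was 0.00157 to 0.0731 over all alternatives.

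The 2 erasers of N6-methyladenosine in mRNA, FTO and ALKBH5, were both lower, and 1 passed. FTO fell from 455 ± 37.3 to 355 ± 15.7 (SD, n = 3 each; log2 fold change -0.35, standard error 0.0950, limma adjusted p = 0.0109). The call of FTO was lost without the variance trend (0.0638) or on omission of the library with 10595408 (0.0571) or 13733477 (0.0553) reads, and its adjusted p (limma, edgeR and DESeq2) was 0.00278 to 0.0638 over all alternatives. ALKBH5 had 1094 ± 37.3 in control and 1017 ± 39.3 in low glucose (SD, n = 3 each), and its groups did not overlap either, but its change was small (log2 fold change -0.10, 95% confidence interval -0.27 to 0.06) and did not pass (limma adjusted p = 0.327). The DNA repair enzymes ALKBH2 and ALKBH3 had log2 fold changes of 0.13 (95% confidence interval -0.22 to 0.47) and -0.01 (-0.26 to 0.23). ALKBH8, a transfer RNA modifying enzyme, had -0.30 (limma adjusted p = 0.149) and ALKBH6 -0.58 (0.0832) from 33 to 68 reads. Of the complex that writes N6-methyladenosine, the subunits METTL3 (log2 fold change 0.02) and METTL14 (-0.09) did not pass and their partner WTAP fell (log2 fold change -0.41, standard error 0.0934, limma adjusted p = 0.00382). The call of WTAP was lost without the variance trend (0.0695), and its adjusted p (limma, edgeR and DESeq2) was 1.31e-04 to 0.0695 over all alternatives.

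Of the collagen hydroxylases, 2 rose, 2 fell and 2 did not pass, so that 66.7% of these 6 passed, against 45.5% of all genes reaching a mean of 50. P4HA1, P4HA2 and P4HA3 are catalytic subunits of collagen prolyl 4-hydroxylase, and PLOD1, PLOD2 and PLOD3 hydroxylate lysine in collagen. P4HA1 had 339, 339 and 285 in control and 389, 423 and 423 in low glucose, a 1.28-fold rise (log2 fold change 0.36, standard error 0.101, limma adjusted p = 0.0132; chr10:73007217-73096974). P4HA2 rose from 269.9 ± 24.1 to 339 ± 20.1 (SD, n = 3 each; log2 fold change 0.33, standard error 0.104, limma adjusted p = 0.0254). Both were above control in every low-glucose library, by about the same amount. PLOD1 moved the other way, from 1834 ± 159 to 1460.4 ± 53.6 (SD, n = 3 each; log2 fold change -0.33, standard error 0.0808, limma adjusted p = 0.00684). PLOD2, with 7 to 38 reads per library, had 24.7, 42.4 and 21.4 in control and 6.91, 10.6 and 16.7 in low glucose. The control mean was 2.59-fold higher (log2 fold change -1.31, standard error 0.376, limma adjusted p = 0.0156), the largest fall among the members, with the widest confidence interval (-2.12 to -0.51). PLOD3, the most abundant member per transcript length, had a log2 fold change of -0.15 (95% confidence interval -0.31 to 0.01) and did not pass. P4HA3 (-0.23) did not pass either. P4HA2-AS1 shares 548 bp of exon with P4HA2 on the other strand and had 15 to 47 reads.

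The call of P4HA1 was lost without the variance trend (0.0742) or on omission of the library with 10841656 (0.0707) or 13733477 (0.0653) reads, and its adjusted p (limma, edgeR and DESeq2) was 0.00157 to 0.0742 over all alternatives. The call of P4HA2 was lost without the variance trend (0.0892), with DESeq2 (0.0512) or on omission of the library with 10190154 (0.0599), 10841656 (0.0708), 10595408 (0.0636) or 13733477 (0.124) reads, and its adjusted p (limma, edgeR and DESeq2) was 0.00790 to 0.124 over all alternatives. The call of PLOD1 was lost after quantile normalization (0.275), without the variance trend (0.0786) or on omission of the library with 10841656 (0.0523) reads, and its adjusted p (limma, edgeR and DESeq2) was 0.00128 to 0.275 over all alternatives. The call of PLOD2 was lost without the variance trend (0.0698) or on omission of the library with 10126218 (0.0513), 10841656 (0.0597) or 10595408 (0.0796) reads, and its adjusted p (limma, edgeR and DESeq2) was 0.00507 to 0.0796 over all alternatives. Of 8 genes that act with these enzymes in collagen assembly, 4 rose, 3 fell and 1 did not pass. The share that passed was 87.5%, against 45.5% of all genes reaching a mean of 50. COLGALT2 rose (log2 fold change 1.05) and its relative COLGALT1 fell (-0.99), with limma adjusted p-values of 0.00107 and 3.12e-06. Both add galactose to hydroxylysine. The collagen prolyl isomerase PPIB rose by 0.50 and P3H4, a partner of the lysyl hydroxylases, had -0.59 (limma adjusted p = 3.53e-04 and 2.93e-04).

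Neither HIF hydroxylase passed in limma, edgeR or DESeq2, and their unadjusted p-values in limma were 0.488 (HIF1AN) and 0.757 (EGLN2). HIF1AN, the asparaginyl hydroxylase that inhibits HIF, had 1784, 1558 and 1686 in control and 1576, 1640.1 and 1619 in low glucose, with a 95% confidence interval of -0.22 to 0.11 around a log2 fold change of -0.05. EGLN2, a prolyl hydroxylase that marks HIF for degradation, had 71.7, 89.2 and 59.9 in control and 75.1, 76.0 and 75.8 in low glucose (log2 fold change 0.06, 95% confidence interval -0.33 to 0.44). The low-glucose values lay within the range of the control values for both. EGLN1, the main HIF prolyl hydroxylase and not one of the 45, did fall, from 609.8 ± 43.8 to 396 ± 29.0 (SD, n = 3 each; log2 fold change -0.62, standard error 0.0936, limma adjusted p = 1.66e-04). It was 1 of 2 that passed among 17 tested genes of a list of 18 further dioxygenases, the other being P3H3, a collagen prolyl 3-hydroxylase (log2 fold change -0.26, limma adjusted p = 0.0270). Both fell. The call of P3H3 was lost after scaling to library size (0.107), after quantile normalization (0.155), without the variance trend (0.103) or on omission of the library with 10841656 (0.137), 10595408 (0.0662) or 13733477 (0.0652) reads, and its adjusted p (limma, edgeR and DESeq2) was 0.00713 to 0.155 over all alternatives. In this list 5 of 17 had no overlap between groups, against 43.9% of all tested genes. The 2 that passed are 11.8% of the list, against 30.9% of all tested genes, so that these further dioxygenases lay below both shares. Of 9 tested genes known as targets of HIF, 3 rose (33.3%, against 14.7% of all tested genes that rose) and 6 did not pass, and CA9 had 0 reads. NDRG1, VEGFA and PDK1 rose by 1.59, 1.54 and 0.58 (log2; limma adjusted p = 2.96e-07, 1.27e-08 and 0.00948), while SLC2A1 (0.09) and BNIP3 (0.12) did not pass. The call of PDK1 was lost on omission of the library with 10595408 (0.0636) or 13733477 (0.0569) reads, and its adjusted p (limma, edgeR and DESeq2) was 0.00413 to 0.0636 over all alternatives. NDUFB8, on the other strand, shares 325 bp of exon with HIF1AN.

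Among the oxygenases of ribosomal and splicing proteins, 2 of 4 fell, and 27.0% of all genes reaching a mean of 50 passed as lower. JMJD6, which hydroxylates lysine in splicing factors, had 603, 586 and 586 in control and 378, 421 and 409 in low glucose. The control libraries were nearly equal, and each low-glucose library was lower (log2 fold change -0.55, standard error 0.0859, limma adjusted p = 2.11e-04; chr17:76712832-76726799). RIOX1, a histidyl hydroxylase of the ribosomal protein RPL8, fell from 362 ± 10.2 to 288 ± 14.8 (SD, n = 3 each; log2 fold change -0.33, standard error 0.0944, limma adjusted p = 0.0156). The call of RIOX1 was lost after scaling to library size (0.0587), without the variance trend (0.0530) or on omission of the library with 10595408 (0.0826) or 13733477 (0.0599) reads, and its adjusted p (limma, edgeR and DESeq2) was 0.00214 to 0.0826 over all alternatives. Its relative RIOX2, which acts on RPL27A, had a log2 fold change of -0.09 (95% confidence interval -0.27 to 0.08), and OGFOD1, a prolyl hydroxylase of the ribosomal protein RPS23, had -0.11 (-0.28 to 0.06). CRYBG3 shares 1919 bp of exon with RIOX2 on the other strand, and BBS2 shares 498 bp with OGFOD1.

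Of the other hydroxylases, PHYH rose. This peroxisomal enzyme starts the alpha-oxidation of phytanic acid. It had 199.5, 226 and 261 in control and 395, 338 and 409 in low glucose, 1.66-fold higher on average and without overlap (log2 fold change 0.73, standard error 0.119, limma adjusted p = 3.05e-04; chr10:13277796-13302412). ASPH, which hydroxylates aspartate and asparagine in epidermal growth factor-like domains, had 966, 925 and 809.9 in control and 708, 752 and 775 in low glucose. Its groups lay close together without overlap (log2 fold change -0.27, standard error 0.0874, limma adjusted p = 0.0293). The call of ASPH was lost after scaling to library size (0.112), after quantile normalization (0.236), without the variance trend (0.132) or on omission of the library with 9741183 (0.140), 10841656 (0.0930), 10595408 (0.141) or 13733477 (0.0636) reads, and its adjusted p (limma, edgeR and DESeq2) was 0.00301 to 0.236 over all alternatives. TMLHE, the first enzyme of carnitine synthesis, had a log2 fold change of 0.16 (95% confidence interval -0.21 to 0.53) and did not pass.

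Levels were compared between genes as TPM, a length-normalized share of the library computed here from the recovered reads and the merged length of all annotated exons. In control, PLOD3 (123 ± 4.29 TPM, SD, n = 3) and PLOD1 (104 ± 8.26) were highest, followed by ALKBH5 (91.6 ± 2.96) and KDM3B (64.1 ± 6.99). PLOD2 (0.612 ± 0.231) and TET1 (0.872 ± 0.335) were lowest of the 43. PLOD2 stood below TET1 through its longer merged length (14518 against 9612 bp), since their mean normalized counts were 29.5 and 27.7 in control. Within the TET genes the order was TET3 (9.72 ± 1.73), TET2 (2.98 ± 0.256) and TET1, and it was the same in low glucose (6.17 ± 0.379, 1.73 ± 0.221 and 0.420 ± 0.115 TPM). HIF1AN (36.4 ± 2.91) stood far above EGLN2 (3.38 ± 0.672), although reads of EGLN2 could also be assigned to RAB4B-EGLN2, a readthrough gene that shares 2012 bp of exon with it and was listed with 0 reads. P4HA2 (8.04 ± 0.826) and P4HA3 (6.91 ± 1.67) did not differ beyond their spread, whereas P4HA1 (31.3 ± 3.35) was above both. Mean normalized counts in control were 321 for P4HA1, 269.9 for P4HA2 and 91.7 for P4HA3. Merged exon lengths were 3093, 10128 and 3990 bp, so the place of P4HA2 depends on the length used. ALKBH7 moved towards ALKBH5, from 45.6 ± 4.57 to 77.8 ± 4.81 TPM, while ALKBH5 was at 81.6 ± 3.23 in low glucose, within the spread of ALKBH7. KDM7A, near the bottom of the demethylases in control (3.39 ± 0.320), reached 7.84 ± 0.475 TPM and KDM6B rose from 11.5 ± 0.499 to 19.0 ± 0.359.

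**Figure D4:**
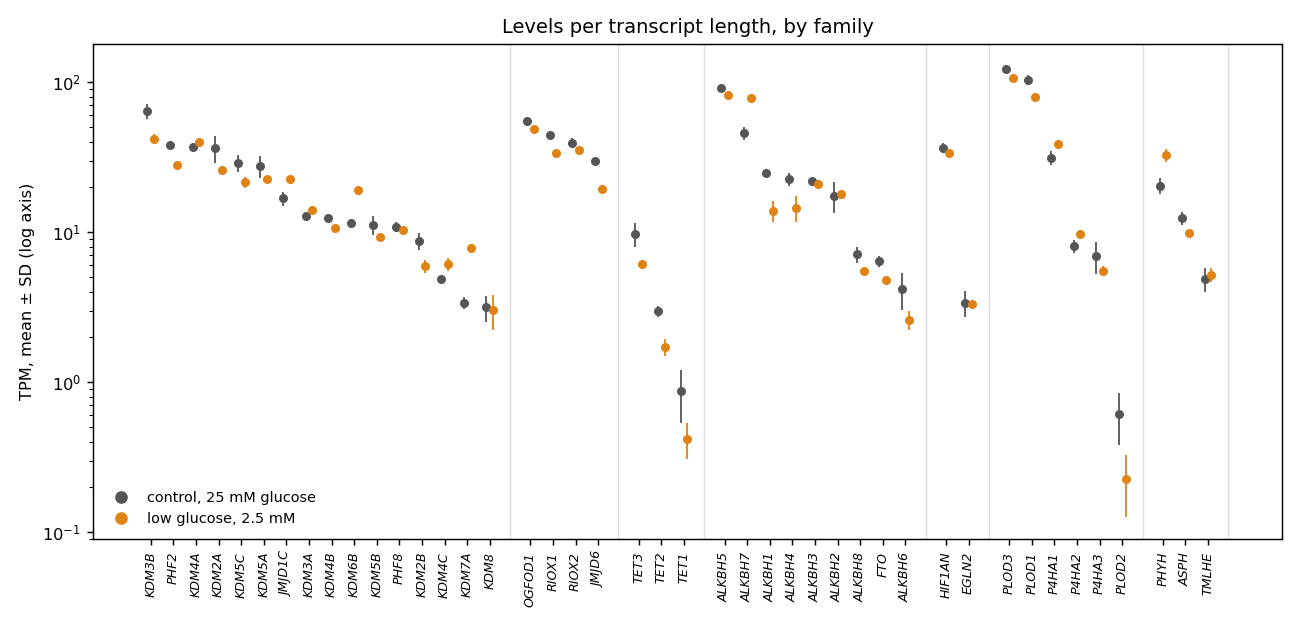
Level of the 43 dioxygenase genes with reads in TPM (y axis, log scale, mean ± SD of 3 libraries), in control (grey) and low glucose (orange), by family and in order of the control level. PLOD3 and PLOD1 are highest and PLOD2 lowest, and in low glucose ALKBH7 (77.8 TPM) comes next to ALKBH5 (81.6 TPM).

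To compare related enzymes independently of scaling, the log2 ratio of 2 members was taken within each library for 11 pairs. A twelfth pair, KDM6B and KDM6A, could not be formed because KDM6A had no read. For 5 pairs the low-glucose and control ratios did not overlap, each with a two-sided exact permutation p of 0.1, which is the lowest p that 2 groups of 3 can reach, and 0.22 after Benjamini-Hochberg adjustment over the 11 pairs, so that none passed. The ratio of KDM3A to KDM3B was -1.65, -1.64 and -1.37 (log2) in control and -0.79, -0.77 and -0.88 in low glucose, a change of 0.74 towards KDM3A. The ratio of KDM4B to KDM4A changed by -0.34, from -0.09, -0.09 and 0.00 to -0.36, -0.38 and -0.46. These are pairs in which neither KDM3A, KDM4A nor KDM4B passed alone. PHF8 gained on PHF2 by 0.38 and ALKBH5 on FTO by 0.25, while the ratio of PLOD2 to PLOD1 changed by -0.99. The ratio of P4HA1 to P4HA2 changed by 0.03 and that of KDM5B to KDM5A by 0.01, with exact permutation p-values of 0.5 and 0.9. The remaining 4 pairs overlapped, with exact permutation p-values of 0.2 (RIOX2 to RIOX1) to 0.8 (KDM2B to KDM2A).

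**Figure D5:**
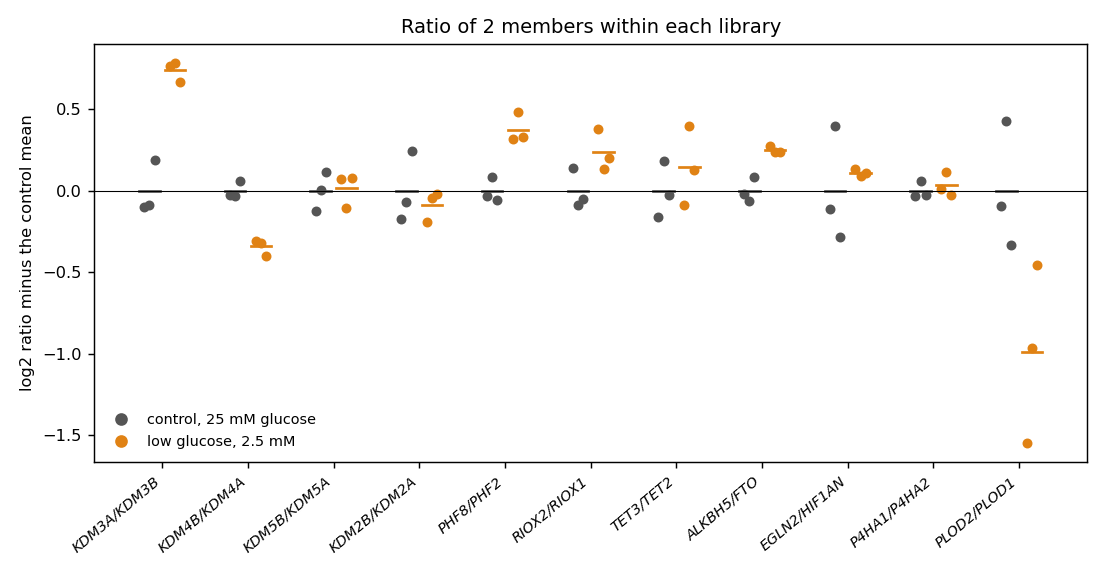
Log2 ratio of 2 members within each library, minus the mean of the control libraries (y axis), for 11 pairs (x axis), with 3 control (grey) and 3 low-glucose (orange) libraries and group means as bars. The groups separate for KDM3A/KDM3B, KDM4B/KDM4A, PHF8/PHF2, ALKBH5/FTO and PLOD2/PLOD1, and the points of P4HA1/P4HA2 lie on top of each other.

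Promoter sequences are shown for members on both sides of the comparison, because rises and falls occurred within 1 enzyme class. RefSeq windows (GRCh38.p14, from 250 bases before to 50 after a start) were matched by symbol for 40 of the 45 genes, without ASPH, P4HA3, RIOX1, RIOX2 and JMJD6. Of the 40 genes, 8 rose and 12 fell. The windows were searched on both strands for the HIF core ACGTG, the E-box CACGTG (which contains it), the CCAAT box, the core TGATGNAA of the element bound by ATF4 with C/EBP partners, the cyclic AMP response element TGACGTCA and the ER stress element. Capitals mark the named motif in each window, which is written in the direction of transcription. KDM7A (chr7:140176934-140177233, minus strand) has 1 ACGTG, JMJD1C (chr10:63521841-63522140, minus strand, 1 of its 3 windows) has 1 CACGTG, ALKBH7 (chr19:6372544-6372843, plus strand) has 4 CCAAT, and TET3 (chr2:73984660-73984959, plus strand, 1 of its 2 windows), which fell, has 2 CACGTG.
KDM7A: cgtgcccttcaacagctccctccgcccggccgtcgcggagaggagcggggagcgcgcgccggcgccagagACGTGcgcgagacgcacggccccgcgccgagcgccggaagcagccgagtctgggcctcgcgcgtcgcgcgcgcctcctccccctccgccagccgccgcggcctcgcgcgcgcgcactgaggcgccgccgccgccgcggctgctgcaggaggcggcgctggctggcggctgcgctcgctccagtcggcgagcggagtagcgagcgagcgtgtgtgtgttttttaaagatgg
JMJD1C: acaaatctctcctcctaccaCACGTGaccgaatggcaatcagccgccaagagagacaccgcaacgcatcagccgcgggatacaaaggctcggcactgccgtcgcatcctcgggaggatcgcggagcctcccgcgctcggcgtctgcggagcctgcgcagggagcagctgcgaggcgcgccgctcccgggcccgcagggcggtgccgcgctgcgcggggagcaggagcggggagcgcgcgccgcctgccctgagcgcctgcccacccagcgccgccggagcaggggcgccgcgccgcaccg
ALKBH7: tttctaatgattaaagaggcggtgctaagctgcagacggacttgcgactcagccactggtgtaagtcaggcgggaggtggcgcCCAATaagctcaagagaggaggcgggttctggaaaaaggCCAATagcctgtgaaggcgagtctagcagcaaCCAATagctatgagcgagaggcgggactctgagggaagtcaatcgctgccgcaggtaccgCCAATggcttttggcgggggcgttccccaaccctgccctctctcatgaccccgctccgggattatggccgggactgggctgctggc
TET3: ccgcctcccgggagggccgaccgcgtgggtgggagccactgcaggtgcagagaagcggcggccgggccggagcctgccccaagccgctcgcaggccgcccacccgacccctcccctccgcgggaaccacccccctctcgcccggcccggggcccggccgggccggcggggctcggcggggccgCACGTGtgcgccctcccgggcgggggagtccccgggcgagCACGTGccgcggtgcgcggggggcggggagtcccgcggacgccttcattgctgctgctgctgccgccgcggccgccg

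ACGTG was found in a window of 12 of the 40 genes, 4 that rose and 4 that fell, against 24.9% of 27305 genes with a window. CACGTG was found for 7 of the 40, 2 that rose (JMJD1C and KDM4C) and 2 that fell (TET2 and TET3), against 8.77%. CCAAT was found for 18 of the 40, of which 2 rose and 5 fell, against 39.7%. TGATGNAA was found for 0 of the 40 genes and for 4.46% of all genes, TGACGTCA for 1 (PHF8) and 2.25%, and the ER stress element for 0 and 0.0916%. Thus the same letters occurred in windows of genes that rose and of genes that fell. A match of letters is a description of the window only.

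The supply of alpha-ketoglutarate and the products that compete with it were followed in 23 further genes, of which 5 rose, 8 fell and 10 did not pass. The share that passed was 56.5%, against 30.9% of all tested genes and 45.5% of those reaching a mean of 50. The rises were led by IDH1, which makes alpha-ketoglutarate in the cytosol, with 608, 504 and 540.3 in control and 1328, 1504 and 1323 in low glucose (log2 fold change 1.33, standard error 0.0908, limma adjusted p = 1.80e-07). PSAT1 and GPT2, transaminases that release alpha-ketoglutarate from glutamate, rose by 0.73 and 0.69 (log2; limma adjusted p = 3.46e-06 and 1.30e-05). Of the transaminases GOT1 and GOT2, the first rose (0.36) and the second fell (-0.33), with limma adjusted p-values of 0.00350 and 0.00387. OGDH (-0.27) and DLST (-0.33), of the complex that consumes alpha-ketoglutarate, fell (limma adjusted p = 0.0323 and 0.00262). D2HGDH, which oxidizes the inhibitor D-2-hydroxyglutarate to alpha-ketoglutarate, rose by 0.58 (5.98e-04 in limma). Fumarate hydratase (FH), which removes fumarate, another inhibitor, fell (log2 fold change -0.55, standard error 0.0773, limma adjusted p = 9.83e-05). Among mitochondrial isocitrate dehydrogenases, IDH2 (-0.38), IDH3A (-0.54) and IDH3B (-0.44) fell (limma adjusted p = 0.0143, 1.70e-04 and 0.00105). IDH3G, the third subunit of the IDH3 complex, was above control in every low-glucose library but did not pass (log2 fold change 0.23, limma adjusted p = 0.0734). The call of IDH2 was lost without the variance trend (0.113) or on omission of the library with 10841656 (0.0749) or 13733477 (0.0800) reads, and its adjusted p (limma, edgeR and DESeq2) was 0.00234 to 0.113 over all alternatives. Without the variance trend the calls of GOT1 (0.0555) and GOT2 (0.0577) were lost. After quantile normalization those of GOT2 (0.0835) and DLST (0.145) were lost (limma adjusted p). OGDH passed in 9 of 16 alternatives. The 4 succinate dehydrogenase subunits, from -0.26 (SDHA) to 0.14 (SDHD), did not pass.

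Of 23 genes for methyltransferases, or subunits of their complexes such as WTAP, that write the marks these enzymes erase, 1 rose, 14 fell and 8 did not pass. Thus 65.2% passed, against 45.5% of all genes reaching a mean of 50. The median log2 fold change of these writers of histone, DNA and RNA marks was -0.34. It was -0.08 for the histone demethylases tested, -0.73 for the 3 TET genes and -0.30 for the ALKBH and FTO family. Over all genes reaching a mean of 50 it was -0.05. SUV39H1 and SUV39H2, which methylate H3 lysine 9, had log2 fold changes of -1.07 and -0.73 (limma adjusted p = 3.19e-06 and 1.25e-04). NSD1, a methyltransferase of lysine 36, had -0.78 (3.51e-05 in limma). For H3 lysine 27, EZH1 was the 1 gene that rose, from 372 ± 21.2 to 600.2 ± 4.62 (SD, n = 3 each; log2 fold change 0.69, standard error 0.0864, limma adjusted p = 3.48e-05), whereas EZH2 fell (log2 fold change -0.36, standard error 0.0722, limma adjusted p = 0.00159). The DNA methyltransferase DNMT1, which the TET enzymes counter, fell as well (log2 fold change -0.68, standard error 0.0859, limma adjusted p = 3.75e-05), while DNMT3A and DNMT3B did not pass. The call of EZH2 was lost after quantile normalization (0.0818), and its adjusted p (limma, edgeR and DESeq2) was 3.49e-05 to 0.0818 over all alternatives.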

How the data were processed

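Strand-specific libraries were sequenced from total RNA of MiaPaCa-2 cells, 3 per group. The authors trimmed the reads with Trim Galore and aligned them to hg38 with STAR 2.7.0e. The study lists RSEM among its software without saying for which step, and the strand setting and annotation of the counting are not given in the sources used here. The deposited signal is a normalized gene count, for which the authors divided each library by 1 size factor. In each library every value (100%) was a whole multiple of its lowest nonzero value (tolerance 0.01), so that whole reads could be recovered, and 0 columns were left unused. Of the gene identifiers, 99.4% matched Gencode v44, which gave names, positions and exon lengths.

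The 21101 genes whose mean normalized count reached 1 were compared as log2(value + 1) with limma 3.58.1 in R 4.3.3 (eBayes with a variance trend, two-sided, Benjamini-Hochberg adjustment over these genes, threshold 0.05). The added 1 understates the changes of genes with few reads. The p-values measure the spread between 3 cultures of 1 line per group. Ratios were compared by exact permutation tests. Alternatives were edgeR 4.0.16 (quasi-likelihood test) and DESeq2 1.42.0 on the recovered reads, 3 other scalings, 2 other filters, an added value of 0.1, no variance trend, removal of a trend with exon length (loess, span 0.3), a fold change criterion and omission of each library in turn. On simulated data limma recovered 183 of 200 changed genes with 7 false calls (21130 genes tested). In the deposited data 6528 genes passed, and recovery with so many changed genes was not tested. The sizes of change set there are not listed here, so these numbers are not a rate for the calls of the members.

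The members and lists were chosen with earlier results of these data known. Every library's value is given for members past the threshold that changed by 0.5 or more on the log2 scale without overlap between groups, and for the largest changes in a family. Other members are given by group mean and SD, by log2 fold change, or as ranges and counts. Of each further list, up to 4 genes past the threshold with the largest change are named by rule. FH, IDH2, IDH3A, IDH3B, IDH3G, GOT1, GOT2, OGDH, DLST, SDHA, SDHD, EZH2, DNMT1, DNMT3A, DNMT3B, METTL3, METTL14, WTAP, SLC2A1 and BNIP3 were named after their values were seen, as were the pairs of overlapping genes.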

Additional observations from a re-analysis of the deposited data

How the results depend on the processing

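No paired analysis was possible because a replicate number could be given to only 2 columns, both of low glucose. Of the 23 members called, 10 passed in all 16 alternative fits: KDM7A, KDM6B, JMJD1C, ALKBH7 and PHYH (higher) and KDM3B, PHF2, JMJD6, TET2 and ALKBH1 (lower). The number of members called was 10 without a variance trend, 12 when a change of 0.5 on the log2 scale was also required, and 15 to 25 with 1 library omitted, and over the other alternatives it was 22 (DESeq2) to 25 (edgeR). Near-equal totals did not always hold the same genes. After quantile normalization 24 members were called, of which 19 were among the 23. Scaling to library size called 23 members, 21 of them among those 23. Over all genes, 4090 passed without a variance trend and 4319 (omitting the 10841656-read library) to 7251 (omitting the 10126218-read library) with 1 library omitted. Scaling to library size called 3930 genes higher and 2645 lower, against 3111 and 3417 with the deposited size factors, and 10 and 13 members, against 8 and 15. It moved the median of genes reaching a mean of 50 by 0.08. Removal of the length trend called 2826 genes higher and 4173 lower.

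Members near 0 changed sign, and none of these had passed. On scaling to library size the log2 fold change became 0.066 for ALKBH3, 0.026 for HIF1AN, 0.067 for KDM8 and 0.067 for PHF8. After quantile normalization it became 0.056 for ALKBH5, -0.11 for EGLN2, 0.16 for HIF1AN, 0.053 for OGFOD1, 0.012 for PHF8, 0.066 for PLOD3 and 0.052 for RIOX2. In edgeR it became 0.0067 for ALKBH3, 0.033 for KDM8 and 0.0072 for PHF8, and KDM8 came to 8.6e-04 with TMM factors and to 0.0033 in DESeq2. With 1 library omitted, the log2 fold change ranged from -0.044 to 0.30 for ALKBH2, from -0.055 to 0.034 for ALKBH3, from -0.080 to 0.20 for EGLN2, from -0.20 to 0.12 for KDM8 and from -0.060 to 0.051 for PHF8. The change of the log2 ratio then ranged from -0.046 to 0.075 for KDM5B to KDM5A, from -0.17 to 0.037 for KDM2B to KDM2A, from -0.031 to 0.31 for EGLN2 to HIF1AN and from -0.0083 to 0.062 for P4HA1 to P4HA2. The cause was not tested. Of 688 comparisons of a member with an alternative, 600 kept direction and call, 47 lost the call, 15 gained one and 26 changed sign. Depth limits PLOD2, TET1, KDM8 and ALKBH6, which had few reads.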
